A study of Homo sapiens and Mus musculus with 8 samples.

Results

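Genes of UV damage repair and of the DNA damage checkpoint were followed in B16N, a mouse melanoma line, after UV exposure and in a clone that overexpresses the Ca2+ channel gene Orai1. The set was a list of 44 gene names, matched to the gene symbols of the tables without regard to letter case. Of these, 39 had a row in all 3 B16N tables, among 14648 usable genes after 2 weeks of UV, 14821 after 5 weeks and 15041 in the clone table. Of the 39, 28 had values of their own and 11 had values identical to those of at least 1 other symbol. Rev1, Atm, Atr, Ddb2 and Claspn had no row under those names and were not analysed here, except that claspin was found under the symbol Clspn and is given apart from the counts.

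The series holds 8 samples of 3 melanoma lines, 1 sample per group. The B16N groups were an untreated wild-type control at day 0, wild-type cells exposed to UV for 2 weeks, wild-type cells exposed to UV for 5 weeks, and an Orai1 overexpressing sample labelled day 0. The last was a clone (O1C44) grown after transfection with CFP-tagged wild-type Orai1, selection with G418 and cell sorting, so it stands for 1 clone. The human groups were untreated WM983 and UACC257 cells at day 0 and UV-exposed cells of each line labelled week 2, all of wild-type genotype. Neither the UV dose nor its kind is given in the sources used here, and Orai1 itself was not analysed here. Because the control was taken at day 0, UV exposure and the weeks of culture cannot be told apart. The clone was set against the same wild-type control, and the samples hold no vector-transfected line and no second clone. Orai1 overexpression therefore cannot be told apart from transfection, selection, sorting or growth from a clone.

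UV light joins neighbouring pyrimidines into bulky lesions that block polymerases. Nucleotide excision repair removes them in steps: recognition in the whole genome or at stalled RNA polymerase, opening of the helix by the TFIIH complex, incision on both sides, and filling and sealing of the gap. Translesion polymerases copy past lesions that remain, and the ATR and ATM checkpoint kinases, through CHEK1 and CHEK2, hold the cell cycle meanwhile. Much of this response works through protein modification, so transcript levels show only part of it.

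All values are the authors' own comparisons of a treated sample with untreated B16N, on the log2 scale, turned so that a positive change means higher in the treated sample. The standard error (SE) is that implied by the deposited test statistic, intervals are 95% normal intervals from it, and adjusted p-values are Benjamini-Hochberg values over the whole table. A gene was called when its adjusted p was under 0.05. With 1 sample per group these errors and p-values compare libraries, with no replicate check, and the tables hold no levels or counts, so depth is unknown. The median SE of all genes was 0.31 at 2 weeks, 0.38 at 5 weeks and 0.32 in the clone in the authors' deposited tables. Of 6 pigment cell markers with own values, 4 were higher at 2 weeks, 5 at 5 weeks, and 2 higher and 1 lower in the clone. Sox10, the 1 further pigment cell marker, shares its values with another symbol and was called lower at 5 weeks (-0.60, SE 0.15, adjusted p = 0.00212, from the authors' deposited table). The single immune marker with values of its own, Lyz2 of macrophages, had changes of 0.38 at 2 weeks, 3.47 at 5 weeks and 2.78 in the clone in the authors' deposited tables (SE 0.94, 0.70 and 0.64), the last 2 of them called. Of the other immune, fibroblast, keratinocyte and endothelial markers, each row present shared its values with other symbols and none was called. Among them the macrophage marker Cd68, shared with 1 other symbol, had SEs of 0.85, 0.998 and 0.91, and the SEs of the rest were 2.58 or more in the authors' deposited tables. The part of such cells in the results was not tested.

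Most repair and checkpoint genes showed no detectable change in any of the 3 comparisons. After 2 weeks and after 5 weeks of UV, none of the 28 genes with values of their own was called, and in the Orai1 clone 2 were: the damage sensor gene Xpc rose by 0.70 (SE 0.17, adjusted p = 4.42e-04) and the translesion polymerase gene Polh fell by 0.38 on the log2 scale (SE 0.12, adjusted p = 0.0115) by the authors' deposited table. Among the 11 genes with shared values, the row of Pold1 was called lower at 2 weeks, the row of Rpa1 higher at 5 weeks, and in the clone the row of Parp1 higher and those of Cdk7 and Gtf2h1 lower. Of the 39 rows, 1 was called at 2 weeks (0 higher, 1 lower), 1 at 5 weeks (1 higher, 0 lower) and 5 in the clone (2 higher, 3 lower). Of all genes in the authors' deposited tables, 7.67% were called at 2 weeks, 4.78% at 5 weeks and 22% in the clone, so the share of members called was below that of the whole table in each comparison. The counts of 1, 1 and 5 are small, and the difference in share was not tested. By direction, 3.13% of all genes were higher and 4.55% lower at 2 weeks, 3.07% and 1.71% at 5 weeks, and 10.3% and 11.6% in the clone, in the authors' deposited tables. At least 2-fold and called were 0 members at 2 weeks, 0 at 5 weeks and 1, the row of Cdk7, in the clone, against 0.348%, 1.81% and 6.79% of all genes in the authors' deposited tables. At an unadjusted p under 0.05, 0 of the 28 genes with own values passed at 2 weeks, 2 at 5 weeks (Polh and Chek2) and 5 in the clone (Xpc, Polh, Cetn2, Chek1 and Ogg1). Of all genes in the authors' deposited tables, 15.8%, 13.3% and 29.6% did, and of all genes with own values 18.7%, 15.6% and 34.9%.

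**Figure D1:**
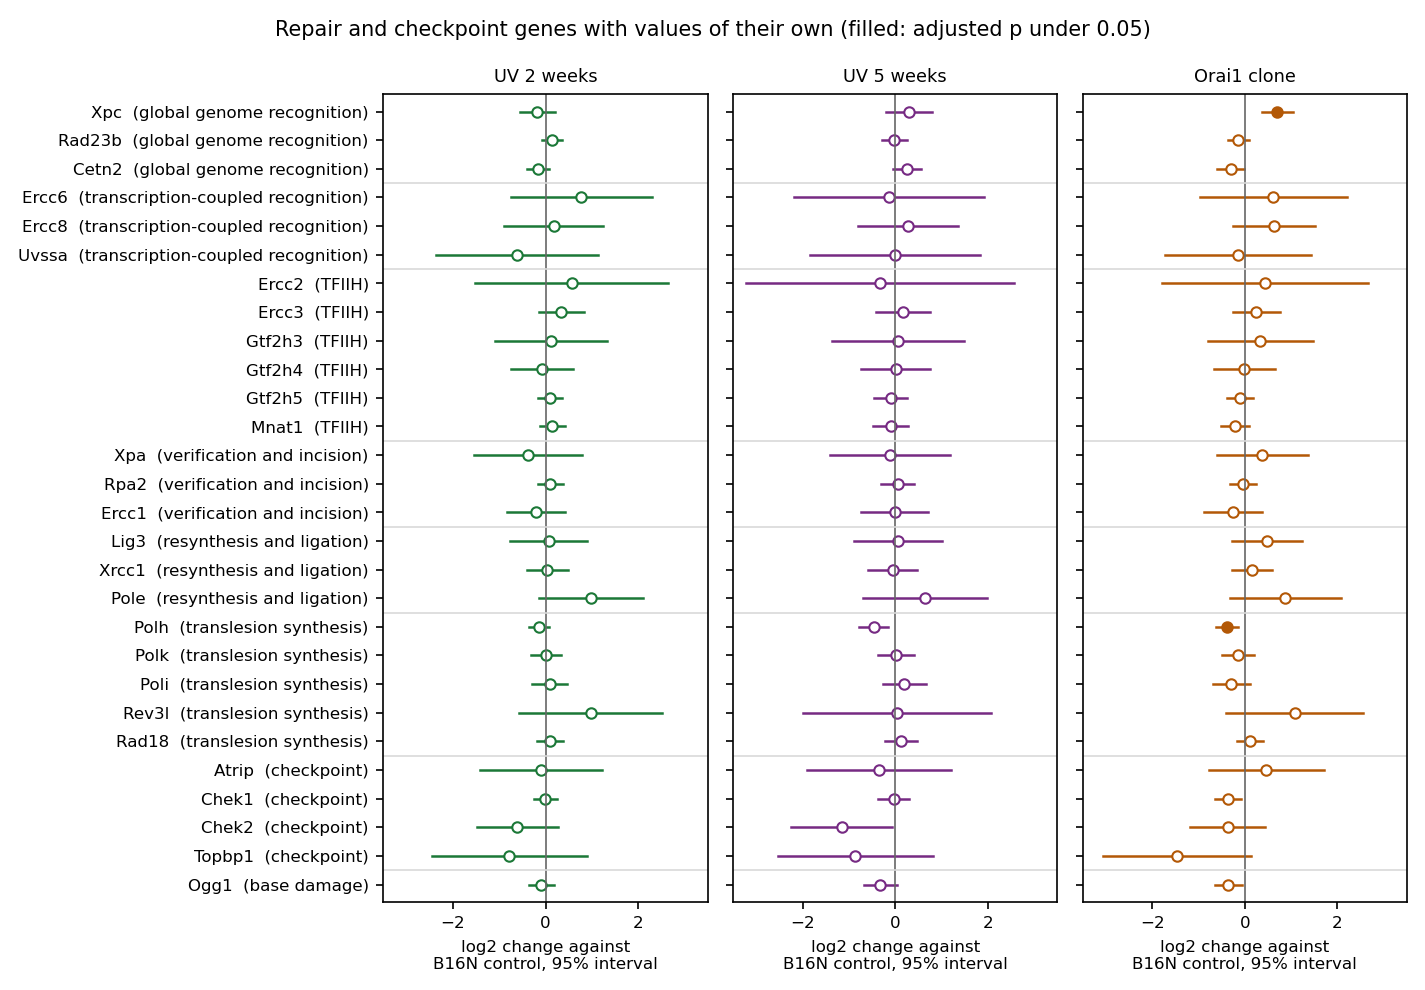
Log2 change against untreated B16N (horizontal axis) of the 28 genes with values of their own, ordered by role, in 3 panels (2-week UV, 5-week UV, Orai1 clone). Points are the authors' changes, lines the 95% intervals, and the only filled points (adjusted p under 0.05) are Xpc at 0.70 and Polh at -0.38 in the clone.

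The median change of the 28 genes was 0.054 at 2 weeks, -0.011 at 5 weeks and -0.029 in the clone, against 0.028, 0.025 and 0.072 over all genes in the authors' deposited tables. Over all genes with own values the medians were 0.020, 0.0069 and 0.033 in the authors' deposited tables. The 28 genes lay on both sides of 0, with 16 above and 12 below at 2 weeks, 13 and 15 at 5 weeks, and 13 and 15 in the clone. How much a change could have been missed differs between genes, because the SE of single genes ran from 0.11 for Rad23b to 1.06 for Ercc2 at 2 weeks in the authors' deposited table. A measured 2-fold change would have been called in 16 of the 28 genes at 2 weeks, in 14 at 5 weeks and in 17 in the clone. The 95% interval left out a 2-fold change in both directions for 17, 16 and 15 of them, and a 1.5-fold change for 13, 9 and 7. For the others the interval does not leave out a change of that size. Among genes of SE at most 0.5, 18 members with own values were left at 2 weeks with 0 called, 17 at 5 weeks with 0 called, and 19 in the clone with 2 called, where 12.3%, 7.1% and 32.6% of all such genes were called in the authors' deposited tables.

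**Figure D2:**
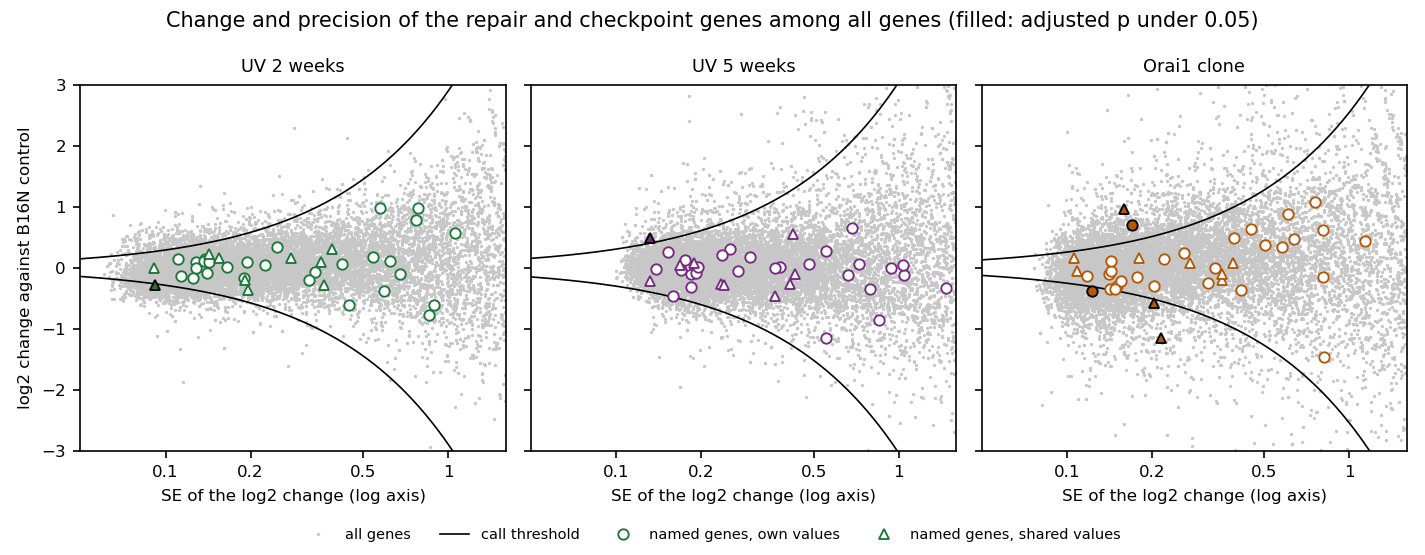
Log2 change against untreated B16N (vertical axis, cut at 3 in each direction) against its SE (horizontal log axis, up to 1.6) for all genes (grey) and for the named repair and checkpoint genes (circles, own values; triangles, shared values). Black curves mark the size of change that was called, and filled symbols are called genes: 1 at 2 weeks, 1 at 5 weeks and 5 in the clone.

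Recognition of damage in the whole genome rests on XPC with its partners RAD23B and centrin 2, and on the DDB1 and DDB2 proteins that hand UV lesions to it. Xpc changed by -0.18 at 2 weeks (SE 0.19, interval -0.55 to 0.19), by 0.30 at 5 weeks (SE 0.25, interval -0.20 to 0.80) and by 0.70 in the clone (SE 0.17, interval 0.36 to 1.03) in the authors' deposited tables. The clone alone was called, with a 1.62-fold higher value. In the test of the difference, Xpc was higher in the clone than at 2 weeks of UV by 0.87 (interval 0.37 to 1.37, adjusted p = 0.00814), while the clone and 5 weeks of UV differed by 0.40 (interval -0.20 to 0.997, adjusted p = 0.82) by the authors' deposited tables. Its partner Rad23b stood at 0.13, -0.02 and -0.14 in the authors' deposited tables for 2 weeks, 5 weeks and the clone, with SEs of 0.11 to 0.14, and its intervals left out a 1.5-fold change each time. Cetn2 stood at -0.17, 0.25 and -0.30 in the authors' deposited tables (SE 0.13, 0.15 and 0.15), and its value in the clone had p = 0.0433 before and 0.150 after adjustment. No partner of Xpc was therefore called beside it. The row of Ddb1, with the same values as Pcdh11x, stood at 0.15, 0.08 and 0.16 and was not called in any of the authors' deposited tables.

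Transcription-coupled repair starts when RNA polymerase stalls at a lesion and recruits the CSB (Ercc6), CSA (Ercc8) and UVSSA proteins. These 3 genes were measured with low precision in every comparison. Ercc6 stood at 0.77, -0.13 and 0.61 (SE 0.77, 1.04 and 0.81) in the authors' deposited tables for 2 weeks, 5 weeks and the clone. Ercc8 stood at 0.17, 0.27 and 0.63 (SE 0.54, 0.55 and 0.45), and Uvssa at -0.62, -0.01 and -0.16 (SE 0.89, 0.94 and 0.81), in the authors' deposited tables. None was called, but the smallest change that would have been called was 2.21-fold, for Ercc8 in the clone, and 9.01-fold for Ercc6 at 5 weeks. A measured 2-fold change of any of them would not have been called.

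TFIIH unwinds DNA around the lesion with its helicases XPB (Ercc3) and XPD (Ercc2), and carries a kinase module of CDK7, MAT1 (Mnat1) and cyclin H. None of its 6 genes with own values was called. Ercc3 stood at 0.33, 0.17 and 0.24 (SE 0.25, 0.30 and 0.26) in the authors' deposited tables for 2 weeks, 5 weeks and the clone, and the small stabilising subunit gene Gtf2h5 at 0.09, -0.10 and -0.11 (SE 0.13, 0.18 and 0.14). Mnat1 stood at 0.15, -0.09 and -0.21 (SE 0.14, 0.19 and 0.16) and Gtf2h4 at -0.08, 0.01 and -0.01 (SE 0.34, 0.38 and 0.34) in the authors' deposited tables. Ercc2 and Gtf2h3 had SEs from 0.58 for Gtf2h3 in the clone to 1.47 for Ercc2 at 5 weeks and bear on large changes alone. In the kinase module, the row of Cdk7, which holds the same values as Fam234b, was 2.23-fold lower in the clone (-1.16, SE 0.22, adjusted p = 1.53e-06), and stood at -0.37 at 2 weeks and -0.28 at 5 weeks without being called in the authors' deposited tables. Ccnh, the cyclin H gene, was taken from a further list of repair genes and has values of its own: it was higher in the clone by 1.04 (SE 0.18, adjusted p = 1.99e-07), and stood at 0.23 and 0.35 at 2 and 5 weeks in the authors' deposited tables. The rows for the kinase and its cyclin thus moved in opposite directions in the clone, and Mnat1 was not called. Gtf2h1, the row of a core subunit with the same values as Zfp40, was lower in the clone at -0.57 (SE 0.20, adjusted p = 0.0255) by the authors' deposited table, and the row of Gtf2h2, with those of Dhodh, was not called in any comparison.

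The XPA and RPA proteins verify the lesion and hold the open strands, and the nucleases XPF with ERCC1 (Ercc4, Ercc1) and XPG (Ercc5) cut them. Xpa stood at -0.38, -0.12 and 0.38 (SE 0.59, 0.66 and 0.50), Ercc1 at -0.21, -0.01 and -0.26 (SE 0.32, 0.37 and 0.32) and Rpa2 at 0.11, 0.05 and -0.05 (SE 0.14, 0.18 and 0.14) in the authors' deposited tables for 2 weeks, 5 weeks and the clone. None was called, and for Rpa2 the intervals left out a 2-fold change in each comparison. The row of Rpa1, the large RPA subunit, has the same values as Prps1. It stood at -0.0052 at 2 weeks and was 1.40-fold higher at 5 weeks (0.48, SE 0.13, adjusted p = 0.00965), with 0.15 in the clone, in the authors' deposited tables. The test of 5 against 2 weeks gave a difference of 0.49 (interval 0.17 to 0.80, adjusted p = 0.0658, from the authors' deposited tables), which did not pass. Rpa3 (with C630043F03Rik), Ercc4 (with Rhox13) and Ercc5 (with Ccnb2) were not called in any of the authors' deposited tables, with changes from -0.47 to 0.16.

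Gap filling and sealing use the replicative polymerases and DNA ligases, with XRCC1 and ligase III outside S phase. Xrcc1 stood at 0.04, -0.05 and 0.15 (SE 0.23, 0.27 and 0.22), Lig3 at 0.07, 0.06 and 0.48 (SE 0.42, 0.48 and 0.39), and Pole, the leading-strand polymerase gene, at 0.98, 0.65 and 0.87 (SE 0.58, 0.68 and 0.61) in the authors' deposited tables for 2 weeks, 5 weeks and the clone. None was called, Pole with adjusted p from 0.383 in the clone to 0.906 at 5 weeks. The row of Pold1, with the same values as Khsrp, was 1.21-fold lower at 2 weeks (-0.28, SE 0.092, adjusted p = 0.0376) and stood at -0.22 and -0.06 at 5 weeks and in the clone in the authors' deposited tables. With the median change of precisely measured genes set to 0 its adjusted p was 0.071. Lig1 shared its values with 185 other symbols at 2 weeks, 7 at 5 weeks and 50 in the clone, with SEs from 2.95 to 3.95 in the authors' deposited tables, and is not interpreted.

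**Figure D3:**
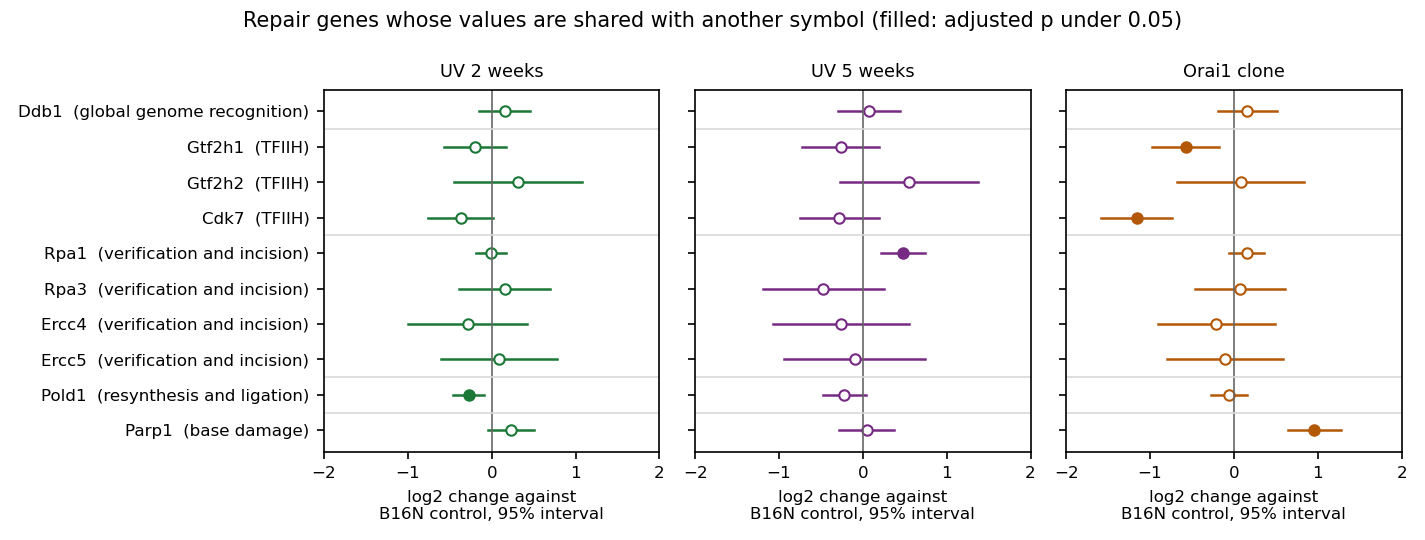
Log2 change against untreated B16N (horizontal axis) of 10 of the 11 genes whose values are identical to those of another symbol, in 3 panels (2-week UV, 5-week UV, Orai1 clone), with 95% intervals. Filled points were called: Pold1 at 2 weeks, Rpa1 at 5 weeks, and Gtf2h1, Cdk7 and Parp1 in the clone. Lig1 is left out for its large SE.

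The 11 shared rows limit what can be said of these genes. Apart from Lig1, each had the same 1 or 2 partners in all 3 tables, such as Cdk7 with Fam234b and Parp1 with Luzp1 and Rhbdf1. Which of the named genes the values belong to cannot be told from the tables. In each table about 29% of the usable rows shared their values with another row (28.9%, 29.3% and 29.1%). All of the UV calls and 3 of the 5 clone calls among the repair and checkpoint genes come from such rows.

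Translesion synthesis was represented by the polymerase genes Polh, Polk, Poli and Rev3l and by Rad18, whose ubiquitin ligase recruits these polymerases to stalled forks. Polh encodes polymerase eta, which copies UV-induced pyrimidine dimers accurately and is lost in the variant form of xeroderma pigmentosum. Its change was -0.14 at 2 weeks (SE 0.11, adjusted p = 0.729), -0.47 at 5 weeks (SE 0.16, adjusted p = 0.065) and -0.38 in the clone (SE 0.12, adjusted p = 0.0115) by the authors' deposited tables. The clone value was called at 1.30-fold lower, and the value at 5 weeks, of similar size and larger SE, was not. The smallest change of Polh that would have been called was 0.31 in the clone and 0.48 at 5 weeks. That size depends on the SE and on the largest p called, which differs between comparisons. Polh at 5 weeks had a deposited p of 0.00331, and the row of Gtf2h1 was called in the clone at a deposited p of 0.00484. The changes of Polh at 5 and at 2 weeks differed by -0.33 (interval -0.71 to 0.055), and those of the clone and 5 weeks by 0.08 (interval -0.31 to 0.48), neither of which passed in the authors' deposited tables. Its value at 5 weeks in the authors' deposited table was called when genes of SE at most 0.5 alone entered the Benjamini-Hochberg adjustment (adjusted p = 0.0436). Polk stood at 0.01, 0.02 and -0.15 (SE 0.16, 0.19 and 0.18), Poli at 0.09, 0.20 and -0.30 (SE 0.19, 0.24 and 0.20) and Rad18 at 0.10, 0.12 and 0.11 (SE 0.14, 0.17 and 0.14) in the authors' deposited tables, none of them called. Rev3l, the catalytic subunit gene of polymerase zeta, stood at 0.97, 0.04 and 1.07 with SEs of 0.78, 1.03 and 0.76 in the authors' deposited tables and was not called.

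Checkpoint genes with values of their own were Chek1, Chek2, Topbp1, which encodes an activator of ATR, and Atrip, the partner of ATR. Chek1, the effector kinase gene of ATR, stood at -0.0036 at 2 weeks (SE 0.13, interval -0.25 to 0.25) and -0.03 at 5 weeks (SE 0.17, interval -0.37 to 0.30) in the authors' deposited tables. In the clone it stood at -0.36 (SE 0.14, p = 0.012, adjusted p = 0.054), just outside the call, and was called when genes of SE at most 0.5 alone were adjusted (adjusted p = 0.0361), in the authors' deposited table. Chek2 stood at -0.61, -1.15 and -0.37 (SE 0.45, 0.55 and 0.41), with p = 0.0368 before and 0.315 after adjustment at 5 weeks, in the authors' deposited tables. Topbp1 stood at -0.78, -0.86 and -1.46 (SE 0.86, 0.85 and 0.81) and Atrip at -0.10, -0.35 and 0.46 (SE 0.68, 0.79 and 0.64) in the authors' deposited tables. None of the 4 was called in any comparison, and for Topbp1 a change had to reach 4.21-fold in the clone to be called. Clspn, the gene of the CHEK1 adaptor claspin, stood at 0.24, 0.13 and 0.16 (SE 0.41, 0.48 and 0.40) in the authors' deposited tables. Of a list of 21 S phase and mitosis genes, the 16, 16 and 15 with values of their own had medians of 0.012, 0.016 and -0.033 at 2 weeks, at 5 weeks and in the clone in the authors' deposited tables. None of these was called at 2 weeks, and the replication helicase gene Mcm4 alone at 5 weeks (-0.51, SE 0.16, adjusted p = 0.0367) by the authors' deposited table. In the clone 4 were higher and 2 lower, among them Mcm2 (0.48) and Mcm6 (0.42) higher and Mcm4 (-0.59) and the mitotic cyclin gene Ccnb1 (-0.45) lower in the authors' deposited table. Of all genes with values of their own, 8.99% were called at 2 weeks, 5.51% at 5 weeks and 25.9% in the clone in the authors' deposited tables.

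For base damage, Ogg1, the glycosylase gene for oxidised guanine, stood at -0.09, -0.32 and -0.36 (SE 0.14, 0.18 and 0.15) in the authors' deposited tables, with adjusted p = 0.0678 in the clone and 0.0458 when genes of SE at most 0.5 alone were adjusted. Parp1 encodes the strand-break sensor that makes poly(ADP-ribose), and its row has the same values as Luzp1 and Rhbdf1. The row stood at 0.23 at 2 weeks and 0.05 at 5 weeks and was 1.94-fold higher in the clone (0.96, SE 0.16, adjusted p = 4.49e-08) by the authors' deposited tables. The clone was higher than 2 weeks of UV by 0.73 (interval 0.31 to 1.15, adjusted p = 0.00876) and higher than 5 weeks of UV by 0.91 (interval 0.46 to 1.37, adjusted p = 0.00305) by the authors' deposited tables.

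The treated libraries were then set against one another by a normal test of the difference between their changes. Between 5 and 2 weeks of UV, 0 of 39 rows differed, where 3.33% of 14083 genes did in the authors' deposited tables. At an unadjusted p under 0.05 were 1 of the 28 genes with own values (Cetn2, difference 0.42) and the shared row of Rpa1. By that unadjusted measure 1596 of the 14083 genes passed in the authors' deposited tables. Between the clone and 2 weeks of UV 2 of 39 differed, Xpc and the row of Parp1, where 11.7% of 14105 genes did. Between the clone and 5 weeks of UV the row of Parp1 differed, 1 of 39, where 5.35% of 14291 genes did. Cdk7, also a shared row, had a difference of -0.79 for the clone against 2 weeks (interval -1.36 to -0.22, adjusted p = 0.058) and -0.88 against 5 weeks (interval -1.51 to -0.24, adjusted p = 0.0997) by the authors' deposited tables, and neither passed. With genes of SE at most 0.5 alone in the Benjamini-Hochberg adjustment, the first passed (adjusted p = 0.0398, from the authors' deposited tables). The interval of the difference left out a 2-fold change in both directions for 13 of the 28 genes between the UV times, 14 between the clone and 2 weeks and 13 between the clone and 5 weeks. All comparisons share the control library, whose spread is counted in both changes, so on that count the test is cautious and its intervals are wide.

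**Figure D4:**
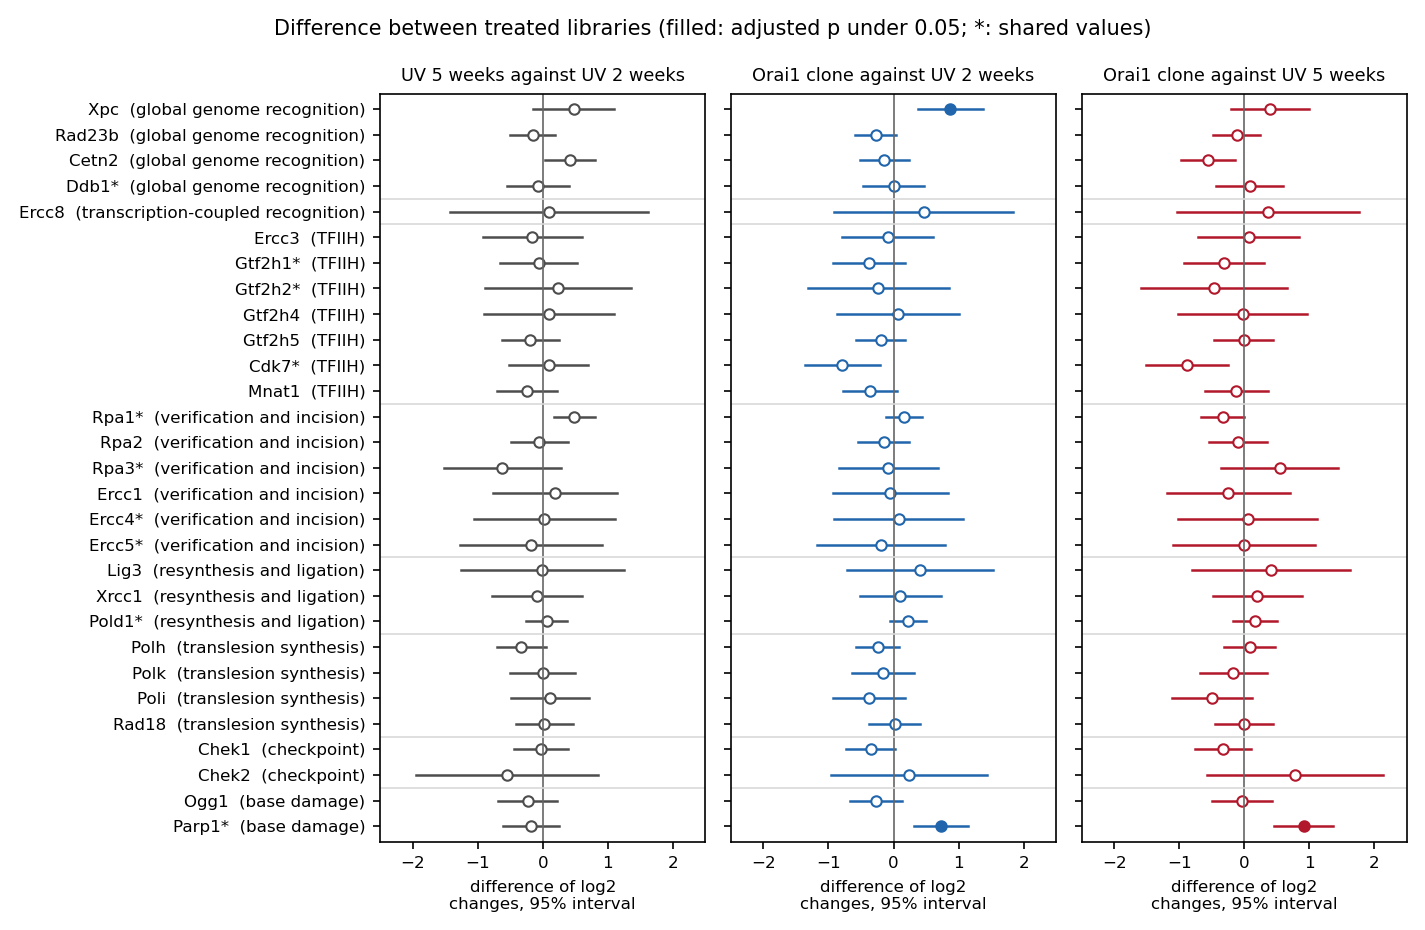
Difference of log2 changes between treated libraries (horizontal axis, first minus second, with 95% intervals) for the 29 genes with an SE of at most 0.6 in every table, ordered by role, with an asterisk for shared values. Filled points passed an adjusted p of 0.05: Xpc and Parp1 between the clone and 2 weeks of UV, and Parp1 between the clone and 5 weeks.

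Further genes of these pathways were taken from lists that hold none of the 44 names. Of 18 other excision repair genes with own values, 2 were higher and 2 lower at 2 weeks, 0 and 1 at 5 weeks, and 2 and 3 in the clone. Of all genes with own values, 8.99% were called at 2 weeks, 5.51% at 5 weeks and 25.9% in the clone in the authors' deposited tables. The same shares stand beside the counts of the lists that follow. At 2 weeks the transcription elongation factor gene Elof1, which acts in transcription-coupled repair, rose by 0.54 (SE 0.090, adjusted p = 2.47e-07) and the polymerase delta subunit gene Pold4 by 0.72 (SE 0.21, adjusted p = 0.0103), while the clamp loader gene Rfc1 stood lower at -0.37 and the deubiquitinase gene Usp7 at -0.34, in the authors' deposited table. Between 5 and 2 weeks the change of Elof1 differed by -0.75 (adjusted p = 2.11e-04), and that of Hmgn1, a nucleosome-binding protein gene, by -0.64 (adjusted p = 0.00654), from the authors' deposited tables. Hmgn1 was the 1 gene of this list called at 5 weeks (-0.55, SE 0.15, adjusted p = 0.00714) by the authors' deposited table. Its value in the clone was similar, at -0.58, and the clone minus 5 weeks gave -0.035, which did not pass, in the authors' deposited tables. In the clone the elongation factor gene Tcea1 (TFIIS) was the most changed, at 1.54 (SE 0.11, adjusted p = 8.83e-43), followed by Ccnh, by the damage-sensing ubiquitin ligase scaffold gene Cul4b at -0.80 and by Usp7 at -0.63 in the authors' deposited table. At 5 weeks Usp7 stood at -0.45 in the authors' deposited table and was not called.

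Of 10 genes from a list of other translesion genes and further DNA polymerases, 1 was called at 2 weeks, 0 at 5 weeks and 2 in the clone. Ube2b, which encodes the ubiquitin-conjugating partner of RAD18, was higher at 2 weeks (0.23, SE 0.077, adjusted p = 0.0447) and lower in the clone (-0.31, SE 0.11, adjusted p = 0.021), and the clone minus 2 weeks gave -0.53 (adjusted p = 9.90e-04) from the authors' deposited tables. Polm, a further polymerase gene of that list, was higher in the clone (0.74, adjusted p = 3.87e-05) by the authors' deposited table. Of the other checkpoint genes, 1 of the 16 with own values was called at 2 weeks, none of 16 at 5 weeks, and 2 of 15 were higher and 2 lower in the clone. Trp53, the p53 gene, fell by 0.55 on the log2 scale at 2 weeks (SE 0.15, adjusted p = 0.00574) and was not called at 5 weeks (-0.21) or in the clone (-0.16) in the authors' deposited tables. In the test of the difference, 5 minus 2 weeks gave 0.34 for Trp53 (adjusted p = 0.741, from the authors' deposited tables). The clone minus 2 weeks gave 0.39 (adjusted p = 0.319, from the authors' deposited tables), and neither passed. Cdkn1a, the p21 gene that p53 induces, was chosen after its values were seen and was not called in any comparison (0.06, -0.36 and -0.23 in the authors' deposited tables). In the clone, Nbn of the double-strand break sensor complex (1.06, SE 0.28) and the checkpoint clamp gene Hus1 (0.86, SE 0.12) were higher, and Trp53bp1 (-0.47) and the histone gene H2ax (-0.37) lower, in the authors' deposited table. Of 13 other base excision repair genes with own values, the abasic site nuclease gene Apex1 alone was called, in the clone (0.56, SE 0.12, adjusted p = 4.60e-05, from the authors' deposited table). Rows with shared values were also called in the clone: 1 higher in the checkpoint list, and 1 higher and 1 lower in both the base excision and the S phase and mitosis lists. Mpg of the base excision list and Tyms of the S phase list hold the same values (0.71 in the clone).

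No repair or checkpoint gene of the set had a row in the tables of the human lines WM983 and UACC257. Each human table held 420 symbols, the same 420 in both, so these lines add no value for the set. From the further lists HLTF, whose protein modifies PCNA at stalled forks, and the cyclin gene CCNE1 had a row. HLTF had a deposited log2 value of 1.06 in WM983 (deposited p = 5e-05) and -0.097 in UACC257 (deposited p = 0.476), and CCNE1 of -1.07 (deposited p = 5e-05) and 0.40 (deposited p = 0.0324), in the authors' deposited tables. The direction of the human values, treated over control or the reverse, could not be checked, and the difference between the lines was not tested.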

How the data were processed

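Per the file headers, the RNA-seq of 8 samples was deposited by the authors as comparison tables, 3 of B16N and 2 of human lines. Each pairs a symbol with the authors' log2 fold change, their test statistic (a score) and their p-value. The submitters' processing notes name the build GRCm38; aligner, counting and test are not given in the sources used here. Of symbols found in just 1 B16N table, all 1357 had a deposited log2 fold change below 0; reads in a single treated library and not in the control would leave such rows, so the sign was turned to read treated over control. The deposited p-value equals the two-sided normal p of the score (largest gap 5.0e-08), and log2 fold change divided by score gave the SE. Rows without a symbol (1 per table) or p-value (3, clone) were left out. Benjamini-Hochberg adjustment ran over each whole table, and over all symbols common to both tables for differences. The smallest callable change is the SE times the test statistic at the largest p called.

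Genes named were all members, and up to 4 called genes with own values per further list and comparison, with the largest changes. Some shared rows of the further lists are named beside them. The members and lists were chosen with earlier results of these data known. The scripts were tested on simulated data. Sequences were not used here. Python 3.11.15, numpy 2.4.6, pandas 2.3.3, scipy 1.17.1 and matplotlib 3.10.9 were used.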

Additional observations from a re-analysis of the deposited data

How the results depend on the processing

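Alternatives were fold minimums of 1.5 and 2, an adjusted p below 0.01, a limit of 0.5 on the SE, the median change of genes of SE at most 0.3 set to 0, and each distinct row counted once without the shared rows. Depth is unknown, so precision is known only through the SE.

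In the clone, the 2 higher members became 0 with the 2-fold minimum and 1 with distinct rows, and the 3 lower became 1 with either fold minimum or the stricter p, and 5 with the SE limit (with Chek1 and Ogg1). With distinct rows Chek1 was also called there, beside Polh. At 2 weeks the 1 lower member (Pold1) became 0 under all alternatives except the SE limit. At 5 weeks the 1 higher member (Rpa1) became 0 with either fold minimum and with distinct rows, and the 0 lower became 1 (Polh) with the SE limit. Members that differed went from 2 to 0 (2-fold) and 1 (distinct rows), or to 3 (with Cdk7, SE limit), between clone and 2 weeks, from 1 to 0 (both) between clone and 5 weeks, and from 0 to 1 (Rpa1, SE limit) between the UV times. Fewer genes are adjusted for under the SE limit, and distinct rows leave out the shared members by construction. No paired analysis was possible because each group has 1 sample.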
